A study of Mus musculus with 6 samples.

Results

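The Dppa genes were named together as developmental pluripotency associated genes, and the group followed here was Dppa1, Dppa2, Dppa3, Dppa4 and Dppa5a. They were chosen by name and make up 5 of the 27998 gene symbols of the count table. The cells came from fetal testes of male mice at embryonic day 14.5 on a mixed C57/B6 and 129 background. There were 3 samples with a conditional knockout of Rb1 (cKO) and 3 control samples labelled wildtype. In both groups the germ cells were sorted by flow cytometry for the red fluorescent protein tdTomato, and 10x Chromium v2 libraries were made, which count transcript molecules at their 3' end by unique molecular identifiers (UMIs). The Cre driver and the deleted part of Rb1 are not given in the labels, nor is the allele from which the controls express tdTomato.

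The 5 genes share a name but do not form a single protein family. Dppa2 and Dppa4 encode related DNA-binding proteins with a SAP domain that bind each other, hold developmental promoters poised in embryonic stem cells and help to activate Dux and the genes of the 2-cell embryo. Dppa3, also called Stella or PGC7, is a classical marker of primordial germ cells, and its protein protects the maternal genome from demethylation in the zygote and keeps UHRF1, the cofactor of maintenance DNA methylation, off chromatin in the oocyte. Dppa5a, also called Esg1, encodes an RNA-binding protein with a KH domain that is abundant in embryonic stem cells and early germ cells. Male germ cells of this age are leaving the mitotic cycle, which the retinoblastoma protein encoded by Rb1 restrains, and they still carry much of the pluripotency programme.

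In the mm10 annotation (GENCODE vM21) Dppa1 lies on the minus strand at chr11:46607772-46629261 and its first listed transcript has 7 exons. Dppa4 at chr16:48283733-48294237 and Dppa2 at chr16:48303908-48319723 are direct neighbours on the plus strand, 9671 bases apart, with 6 and 7 exons. Dppa3 lies on the plus strand at chr6:122626410-122630272 with 4 exons, and Dppa5a on the minus strand at chr9:78367052-78368177 with 3 exons. The annotation also holds the pseudogenes Dppa5b and Dppa5c on chromosome 9 and Dppa3-ps on chromosome X, which have no row in the count table. The counts of Dppa5a and Dppa3 are therefore uncertain by any reads that match those copies.

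RefSeq's promoter table for GRCm38.p6 matched 1 of the 5 members, Dppa1, so only its promoter is shown. Dppa1 had no UMI in these libraries. The window below is the minus strand of chr11:46629225-46629524, 300 bases around the start that RefSeq gives the gene, written 5' to 3', with its only CG dinucleotide in capitals.
Dppa1: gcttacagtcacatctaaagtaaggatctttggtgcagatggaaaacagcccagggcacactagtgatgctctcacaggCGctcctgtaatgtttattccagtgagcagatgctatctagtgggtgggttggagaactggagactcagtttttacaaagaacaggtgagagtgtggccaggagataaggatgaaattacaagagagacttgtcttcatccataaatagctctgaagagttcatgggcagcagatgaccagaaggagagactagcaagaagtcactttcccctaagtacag
The motif searched was CG, which reads the same on both strands. The median over all 32851 promoters of this length was 7 CG dinucleotides, and 14.1% of them held at most 1. The count is a description of the window and says nothing of what silences or activates the gene.

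The libraries held 480, 945 and 1164 cells in cKO samples 1 to 3 and 781, 430 and 1354 cells in control samples 1 to 3, or 5154 cells in all. Summed UMIs were 7807571 to 16810763 in cKO samples and 7598511 to 17323152 in control samples. Rb1 averaged 3.57 ± 0.196 CPM (UMIs scaled to one library total and corrected by TMM factors) in cKO samples and 8.71 ± 1.60 CPM in control samples (SD, n = 3 each), without overlap, although its adjusted p by edgeR was 0.415. All 12 genes of a germ cell marker list had UMIs, with a summed level of 2683 to 2724 CPM in cKO samples and 2140 to 2757 CPM in control samples. The macrophage markers summed to 1.75 to 3.87 CPM in cKO samples and 5.03 to 50.8 CPM in control samples, highest in control 2. The Sertoli cell markers summed to 8.39 to 12.3 CPM in cKO samples and 6.03 to 26.4 CPM in control samples, highest in control 3. The Leydig cell markers summed to 0.768 to 1.19 CPM in cKO samples and 0.635 to 1.45 CPM in control samples. In that list Hsd3b1 and Insl3 were at 0. The part of these other cells in the Dppa values was not tested. Within each group the 3 libraries differed from one another by more than sampling noise. Over all libraries, 9 barcode sequences occurred in more than 1 library.

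The 4 detected members fell into 2 abundant and 2 scarce genes. UMIs mark whole molecules, so levels are CPM without division by length. Dppa5a had 312973 UMIs over the 6 samples, a mean of 4208 CPM, which ranked it 30 among 18735 genes with a UMI. Dppa3 had 193358 UMIs and 2607 CPM, and ranked 74. The members Dppa4 with 15727 UMIs, 208 CPM and rank 731, and Dppa2 with 3343 UMIs, 45.7 CPM and rank 2906, stood far lower. The order Dppa5a, Dppa3, Dppa4, Dppa2 held in each of the 6 samples, and no neighbours in it overlapped: the lowest sample of Dppa5a stood at 3817 CPM and the highest of Dppa3 at 2821 CPM, while Dppa4 spanned 169 to 257 CPM and Dppa2 40.3 to 48.8 CPM. Together the 4 took 0.640%, 0.724% and 0.695% of all UMIs in cKO samples 1 to 3 and 0.717%, 0.666% and 0.798% in control samples 1 to 3.

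Dppa1 had 0 UMIs in every sample. A floor of 3 counts over the 73081492 UMIs of all samples corresponds to 0.0411 CPM. It was also found in 0 of 5154 cells, which allows a share of cells with a UMI of up to 0.0582%. Its annotated neighbours were as quiet: BC053393 had 0 UMIs and Timd2, a T cell immunoglobulin and mucin domain gene, had 3 UMIs in all libraries together. No fold change is given for Dppa1, which was below the floor in both groups.

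The comparison of cKO with control samples asks whether loss of Rb1 changed the transcript levels of these genes. Counts were summed over the germ cells of each sample and tested with edgeR's quasi-likelihood test over 11540 genes, of which 4 were Dppa genes. None of the 4 passed an adjusted p of 0.05, and the background share of all genes tested that passed was 0%. At an unadjusted p under 0.05, 0 of the 4 members passed, beside 405 of all genes tested or 3.51%. The values of the 2 groups did not overlap for 8.93% of all genes tested and for 0 of the 4 members. DESeq2 called 3 genes, none of them a Dppa gene.

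Dppa3 stood at 2283, 2640 and 2881 CPM in cKO samples 1 to 3, against 2516, 2540 and 2820 CPM in control samples 1 to 3. The cKO samples held both the lowest and the highest value, so the control range lay wholly inside the cKO range. The means were 2601 ± 301 CPM in cKO samples and 2625 ± 169 CPM in control samples (SD, n = 3 each). On the log2 scale cKO over control was -0.013 ± 0.094 (SE; 95% interval -0.22 to 0.20), and edgeR gave an adjusted p of 0.994. Leaving out cKO 1 turned the sign to 0.072 and leaving out control 3 turned it to 0.042, both within that interval.

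Dppa5a stood at 3708, 4376 and 3924 CPM in cKO samples 1 to 3, against 4420, 3745 and 5152 CPM in control samples 1 to 3. The highest value was that of control 3 and the lowest that of cKO 1, and the groups overlapped. The means were 4003 ± 341 CPM in cKO samples and 4439 ± 704 CPM in control samples (SD, n = 3 each). On the log2 scale cKO over control was -0.15 ± 0.12 (SE; 95% interval -0.41 to 0.12), and edgeR gave an adjusted p of 0.994. The difference was -0.028 without control 3 and -0.26 without control 2, where the unadjusted p by edgeR was 0.041 and the adjusted p 0.999.

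Dppa4 stood at 177, 169 and 245 CPM in cKO samples 1 to 3, against 192, 206 and 267 CPM in control samples 1 to 3. In each group 1 library, numbered 3, was clearly higher than the other two, and cKO 3 exceeded controls 1 and 2. The means were 197 ± 41.8 CPM in cKO samples and 222 ± 39.8 CPM in control samples (SD, n = 3 each). On the log2 scale cKO over control was -0.17 ± 0.19 (SE; 95% interval -0.62 to 0.27), and edgeR gave an adjusted p of 0.994. It was -0.016 without control 3 and -0.36 without cKO 3, where the unadjusted p by edgeR was 0.034 and the adjusted p 0.980.

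Dppa2 stood at 39.1, 44.1 and 49.4 CPM in cKO samples 1 to 3, against 48.8, 47.8 and 45.1 CPM in control samples 1 to 3. Here, too, the control values lay within the cKO range. The means were 44.2 ± 5.17 CPM in cKO samples and 47.3 ± 1.91 CPM in control samples (SD, n = 3 each). On the log2 scale cKO over control was -0.090 ± 0.10 (SE; 95% interval -0.32 to 0.14), and edgeR gave an adjusted p of 0.994. The difference was -0.013 without cKO 1 and -0.18 without cKO 3. Of the 4 genes it had the fewest UMIs.

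**Figure D1:**
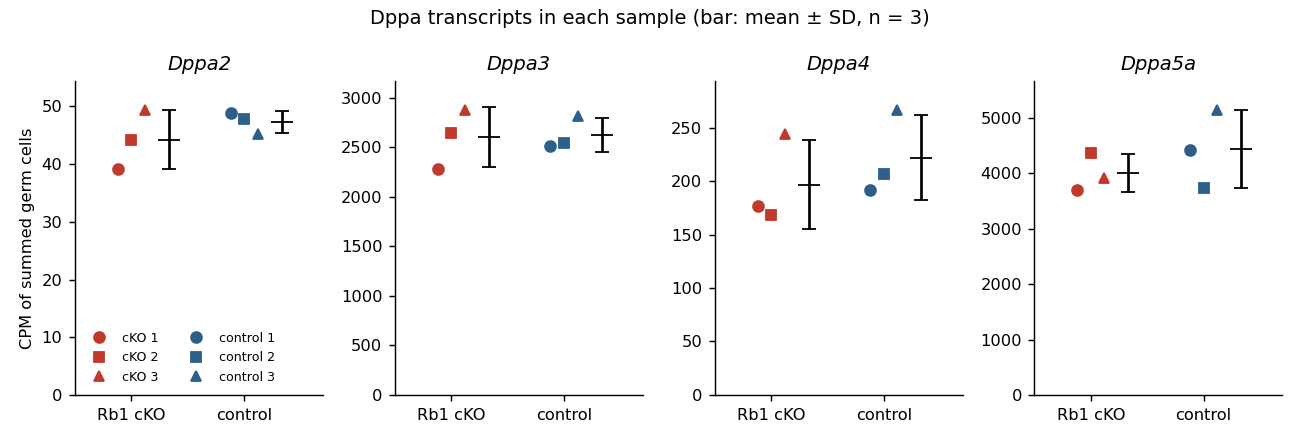
Level of each detected Dppa gene in each sample, in CPM of the summed germ cells on a linear axis from 0, with cKO samples left of control samples; points are samples and bars are means with SD (n = 3 each). The groups overlap for all 4 genes, and Dppa4 is highest in the libraries numbered 3 of both groups.

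The fold changes of all 4 members were below 0, as were those of 49.9% of all genes tested. The interval of Dppa4 was the widest and that of Dppa3 the narrowest. A p above the threshold does not show that the levels were alike. The ratio of the members to each other also overlapped. Dppa5a over Dppa3 was 1.62, 1.66 and 1.36 in cKO samples 1 to 3 and 1.76, 1.47 and 1.83 in control samples 1 to 3. Dppa4 over Dppa2, the pair whose proteins bind each other, was 4.51, 3.82 and 4.95 in cKO samples 1 to 3 and 3.93, 4.32 and 5.92 in control samples 1 to 3.

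The authors assigned the cells to 5 clusters without names, and the 3 genes with the largest fold over the other cells are given for each. Cluster 0 held 2210 cells and was led by Ccne1, 2810417H13Rik and Rrm2. Ccne1 encodes cyclin E1, which acts at entry into S phase, and Rrm2 a subunit of ribonucleotide reductase. Cluster 1 held 1863 cells and was led by Cdc20, an activator of the anaphase-promoting complex, Blnk, an adaptor of B cell signalling, and Hmmr, a spindle-associated protein. Cluster 2 held 640 cells, led by the replication-dependent histone genes Hist1h1e, Hist1h1d and Hist1h3e. Cluster 3 held 343 cells and was led by Pf4, Rpgrip1 and Slc24a5, and cluster 4 held 98 cells, led by Dcxr, Mcam and Phlda3. Pf4 gave 81.6 CPM of the 85.4 CPM of the macrophage list in cluster 3. That list summed to 580 CPM in cluster 3 of control 2 and to 0 to 18.4 CPM in the other samples. A single cell of control 2 held 357 of its UMIs, so the lead of Pf4 rests mostly on 1 cell. The clusters were made from the expression of these same cells, so the levels below are a description and carry no test.

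Dppa4 was the member with the most marked order over the clusters. Within each sample its level in cluster 1 was above that in cluster 0, in 6 of 6 samples, by 0.19 ± 0.041 on the log2 scale (SD over samples). In clusters 2, 3 and 4 it was below cluster 0 in 6 of 6 samples each, by a mean log2 difference of -0.17, -0.27 and -0.32. Averaged over the 6 samples the levels were 203 ± 34.9 CPM in cluster 0, 232 ± 36.9 CPM in cluster 1, 181 ± 27.7 CPM in cluster 2, 168 ± 20.3 CPM in cluster 3 and 165 ± 43.0 CPM in cluster 4. These ranges overlap between samples, and the order shows only within a sample. The mean for cluster 3 leans on control 3, whose 25 cells there had a median of 4654 UMIs and gave a log2 difference of -0.74. That for cluster 4 rests on 15 to 71 UMIs of Dppa4 per sample, from 10 to 27 cells.

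Dppa3 varied little. It was lower in cluster 1 than in cluster 0 in 6 of 6 samples, by a mean log2 difference of -0.057 ± 0.018 (SD), and higher in cluster 2 in 5 of 6 samples, by 0.033 ± 0.030. Cluster means ran from 2537 to 2700 CPM. Dppa5a had cluster means of 4132 to 4527 CPM, and in cluster 4 it was above cluster 0 in 5 of 6 samples, by 0.088 ± 0.070. Dppa2 had cluster means of 38.7 to 47.4 CPM, and its log2 differences from cluster 0 lay on both sides of 0 in every cluster. In cluster 4 it rested on 2 to 12 UMIs per sample, too few to place it.

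**Figure D2:**
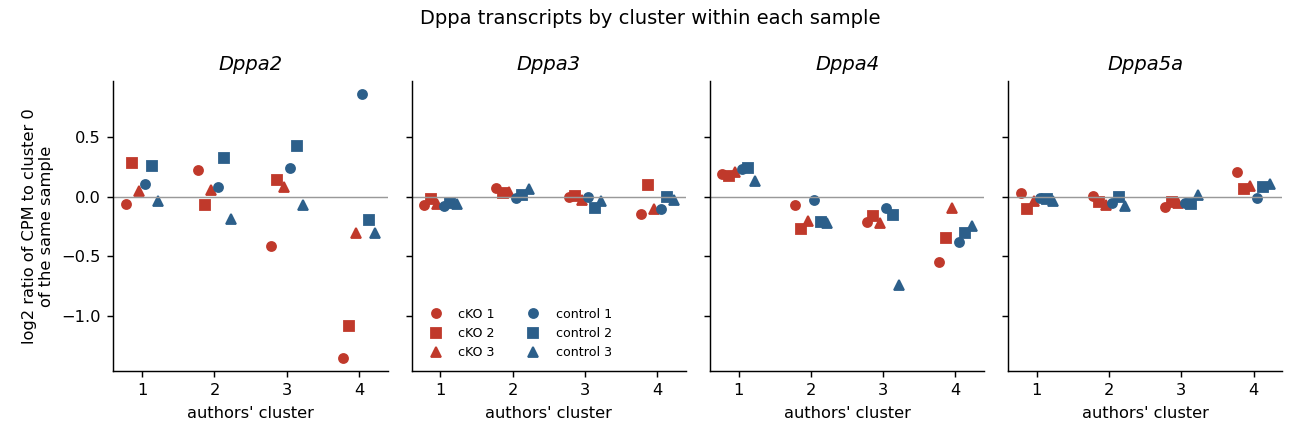
Log2 ratio of each detected Dppa gene in the authors' clusters 1 to 4 to its level in cluster 0 of the same sample; points are samples, cKO left of control, and the line at 0 marks cluster 0. Dppa4 lies above 0 in cluster 1 and below 0 in clusters 2, 3 and 4 in all 6 samples, while Dppa3 and Dppa5a stay near 0 and Dppa2 scatters widely in cluster 4.

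The effect of the knockout was then fitted within clusters 0 to 3, which held at least 20 cells in every sample. The numbers of genes tested were 10091, 9889, 7895 and 5996, and in each cluster 0% of them passed an adjusted p of 0.05. The shares with an unadjusted p under 0.05 were 3.88%, 3.37%, 4.04% and 3.37%, and no member was among them. The 2 groups did not overlap for 9.66%, 9.24%, 9.34% and 9.56% of genes, and they overlapped for each of the 4 members in each cluster. Dppa3 had log2 fold changes, cKO over control, of -0.025, -0.017, -0.0056 and 0.016 in clusters 0, 1, 2 and 3. Those of Dppa5a were -0.14, -0.17, -0.14 and -0.17, so this gene had the most even values of the 4. Dppa4 gave -0.16, -0.16, -0.19 and -0.014, and Dppa2 gave -0.054, -0.061, -0.038 and -0.30.

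The largest of these, for Dppa2 in cluster 3, came from 30.8, 46.8 and 53.7 CPM in cKO samples 1 to 3 and 55.9, 58.9 and 45.9 CPM in control samples 1 to 3. The groups overlapped, and the 95% interval was -0.79 to 0.20. Only 18, 47 and 62 UMIs in cKO samples and 41, 36 and 7 UMIs in control samples stood behind it. By edgeR the adjusted p of each of the 4 members was 1 after rounding in each of the 4 clusters. Whether the effect differed between clusters was tested with an interaction term over 10397 genes. It called 0% of them, 4.92% had an unadjusted p under 0.05, and the members had edgeR p-values of 0.829 for Dppa2, 0.395 for Dppa3, 0.933 for Dppa4 and 0.630 for Dppa5a, all adjusted to 0.999.

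**Figure D3:**
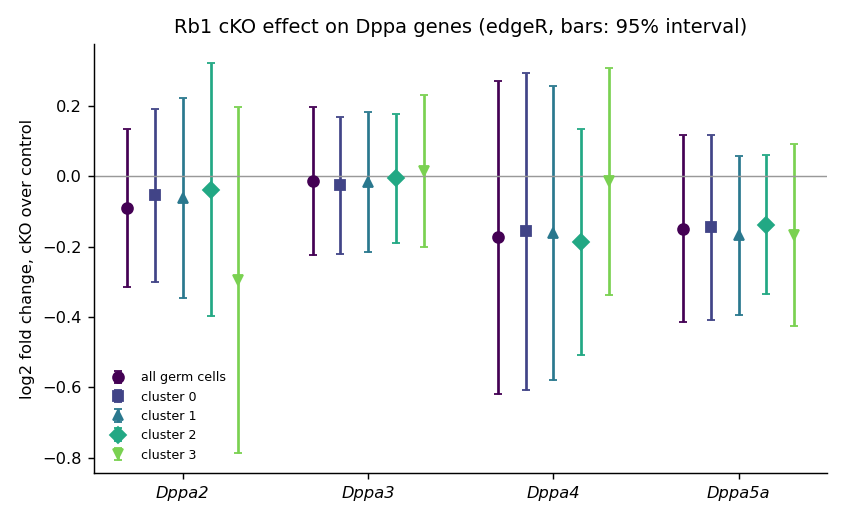
Log2 fold change of each detected Dppa gene, cKO over control, with its 95% interval, over all germ cells and within clusters 0 to 3 (n = 3 samples a group). Every interval includes 0, and the widest belongs to Dppa2 in cluster 3.

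Single cells were compared after thinning each to 10000 UMIs, which kept 4698 cells. The cells left out as shallower were 25, 91 and 66 in cKO samples 1 to 3 and 43, 13 and 218 in control samples 1 to 3. Dppa3 and Dppa5a were found in nearly every cell. At this depth every cKO cell had both, as did every cell of controls 1 and 3. In control 2, 415 of 417 cells had a UMI of each gene, or 99.5%. The control mean was 99.8% ± 0.277 for each gene (SD, n = 3). The median cell held 23, 26 and 28 UMIs of Dppa3 in cKO samples 1 to 3 and 25, 26 and 27 in control samples 1 to 3. For Dppa5a the medians were 37, 43 and 38 UMIs in cKO samples 1 to 3 and 43, 37 and 49 in control samples 1 to 3.

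Dppa4 had a UMI in 81.3%, 80.1% and 88.6% of thinned cells in cKO samples 1 to 3, and in 82.9%, 85.4% and 90.0% in control samples 1 to 3. The groups overlapped, with means of 83.3% ± 4.61 in cKO samples and 86.1% ± 3.57 in control samples (SD, n = 3 each; exact two-sided permutation p = 0.5, where 0.1 is the smallest this design allows). Dppa2 had a UMI in 31.2%, 37.9% and 35.6% of thinned cells in cKO samples 1 to 3, and in 37.9%, 36.7% and 34.9% in control samples 1 to 3. Its means were 34.9% ± 3.42 in cKO samples and 36.5% ± 1.50 in control samples (SD, n = 3 each; exact permutation p = 0.6). Without thinning the means were 90.0% in cKO samples and 93.3% in control samples for Dppa4, and 45.8% in cKO samples and 48.5% in control samples for Dppa2. A cell without a UMI of Dppa2 is not shown to lack its transcript, since the average cell held under 1 UMI. The cells held no cluster without germ cell markers, so the share that free RNA alone would give was not measured.

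The 2 abundant members had the lowest coefficients of variation between cells of the 4. The coefficient of variation between thinned cells was 0.234 ± 0.0075 in cKO samples and 0.239 ± 0.012 in control samples for Dppa3 (SD, n = 3 each; exact permutation p = 0.6). For Dppa5a it was 0.263 ± 0.010 in cKO samples and 0.265 ± 0.024 in control samples (SD, n = 3 each; exact permutation p = 1). Counting alone at these means would give 0.188 to 0.206 for Dppa3 and 0.142 to 0.163 for Dppa5a. The gap between the measured and the counting value was wider for Dppa5a than for Dppa3, although Dppa5a had more UMIs per cell. Dppa4 had 0.779 ± 0.057 in cKO samples and 0.738 ± 0.061 in control samples (SD, n = 3 each; exact permutation p = 0.5). Dppa2 had 1.55 ± 0.11 in cKO samples and 1.52 ± 0.043 in control samples (SD, n = 3 each; exact permutation p = 0.8). For these scarcer genes counting alone would give 0.624 to 0.762 for Dppa4 and 1.42 to 1.62 for Dppa2. The Fano factor, the variance over the mean, was a further measure of spread, not among those planned, and it depends on the mean level. For Dppa5a it was 2.83, 2.77 and 2.68 in cKO samples 1 to 3 and 2.97, 3.19 and 2.95 in control samples 1 to 3, without overlap. That is the smallest p the design allows (exact permutation p = 0.1, not adjusted for the 4 genes), and at 5000 UMIs per cell the exact p was 0.2. For Dppa2 the Fano factor was 1.04 ± 0.032 in cKO samples and 1.08 ± 0.0095 in control samples (SD, n = 3 each), with the same exact p at both depths. At the deeper of these depths those of Dppa3 and Dppa4 overlapped (exact permutation p = 0.7 and 1). At 5000 UMIs per cell the Fano factor of Dppa3 was 1.19, 1.22 and 1.15 in cKO samples 1 to 3. In control samples 1 to 3 it was 1.24, 1.25 and 1.25, without overlap (exact permutation p = 0.1, not adjusted). In control 2, 425 of 427 cells had a UMI of Dppa3 at this depth. The cells without one add to its spread, and whether the groups stay apart without them was not tested. The Fano factor of Dppa4 overlapped at 5000 UMIs per cell too. Without thinning the exact permutation p of the Fano factor was 0.9 for Dppa2, 0.9 for Dppa3, 0.2 for Dppa4 and 0.5 for Dppa5a. At 10000 UMIs the mean per cell of Dppa5a was 39.9 UMIs in cKO samples and 43.8 in control samples. In control 2, 415 of 417 cells had a UMI of Dppa5a at that depth, and its Fano factor without the others was not computed. The share of all genes whose Fano factors did not overlap was not computed either.

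**Figure D4:**
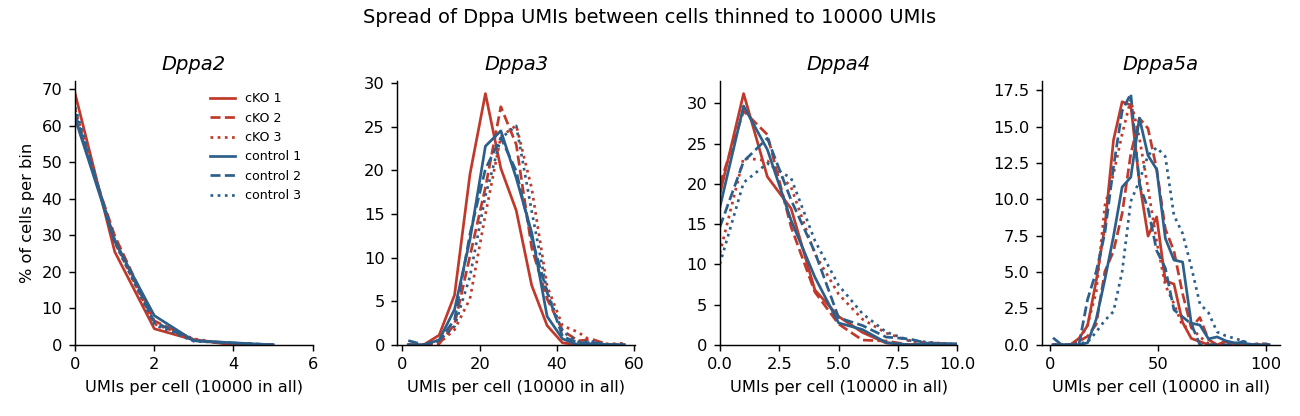
Distribution of UMIs per cell of each detected Dppa gene after thinning to 10000 UMIs, as the percentage of a sample's cells in each bin of UMIs on linear axes (bins differ in width between genes); each line is 1 sample, cKO and control in different colours. The lines of the groups are interleaved, with Dppa3 and Dppa5a in single peaks away from 0 and Dppa2 mostly at 0.

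The few cells that lacked the abundant members were all in cluster 3. Without thinning, 3 of 5154 cells had no UMI of Dppa3, which were 2 cells of control 2 and 1 of control 3. The same was true of Dppa5a in 4 cells, 1 of cKO 3, 2 of control 2 and 1 of control 3. Both cells of control 2 were deep, with 18533 and 11840 UMIs, and had 0 UMIs of all 5 Dppa genes. One of them held 357 UMIs of the macrophage list, which summed to 580 CPM in cluster 3 of that sample. The 4 remaining cells with under 1000 CPM of Dppa5a had only 1030 to 1461 UMIs. Of the 6 cells under that level, 1 held all 39 UMIs of the interstitial stromal list. That list stood at 1107 CPM in the 6 cells and 4.16 CPM in the other cells. All 10 UMIs of the Sertoli list were also in 1 cell. The germ cell list stood at 682 CPM in the 6 cells and 2569 CPM in the other cells. What type of cell each was, the deepest included, was not tested. Over all germ cells without cluster 3 the log2 fold change of Dppa2 was -0.075, and no member passed the adjusted threshold.

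The counts of the members were nearly unrelated from cell to cell. Over all pairs the Pearson r in thinned cells lay between -0.122 and 0.080 in the 6 samples, a description over 417 to 1136 cells a sample that share library and depth. For Dppa3 with Dppa5a it ran from -0.076 to 0.0051. For Dppa2 with Dppa4, which share a locus and act as a pair in mouse embryonic stem cells, it ran from -0.053 to 0.070. Cells with a UMI of both Dppa2 and Dppa4 made up 25.5% to 32.0% of the samples, and the product of the separate shares was 25.4% to 31.6%. Values this weak in sparse counts are no finding.

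Over the 26 sums of a sample and a cluster with at least 20 cells, the genes most like each member were sought among 4932 genes whose mean level reached 20 CPM. The likeness was the Pearson r of log2(CPM + 1). Dppa5a was most like Rps9, a protein of the small ribosomal subunit (r = 0.900), Polr2j, a subunit of RNA polymerase II (r = 0.846), and Aurkaip1 (r = 0.844). Dppa3 was most like the ribosomal protein genes Rplp1 (r = 0.834), Rpl23 (r = 0.789) and Rps15 (r = 0.757). Dppa4 was most like Aimp1, a scaffold protein of the aminoacyl-tRNA synthetase complex (r = 0.774), Ifitm2 (r = 0.749) and Naa15, a subunit of the N-terminal acetyltransferase NatA (r = 0.738). Dppa2 was most like Ireb2, an iron-regulatory protein (r = 0.720), Rnh1, a ribonuclease inhibitor (r = 0.712), and Ppp3r1, the regulatory subunit of calcineurin (r = 0.709). Pairs of members had r between -0.263 and 0.284. The 26 sums come from 6 libraries, share depth within each, and give no test.

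The genes beside the members stood at much lower levels than Dppa3 and Dppa5a. Gdf3, a TGF-beta family ligand of pluripotent cells, lies 16323 bases from Dppa3 and averaged 45.4 ± 4.48 CPM in cKO samples and 50.7 ± 5.50 CPM in control samples (SD, n = 3 each). Nanog, a core pluripotency factor, is the neighbour on the other side, 77217 bases away, with 39.3 ± 0.943 CPM in cKO samples and 39.9 ± 1.36 CPM in control samples (SD, n = 3 each). Dppa3 thus stood above both of its neighbours by a wide margin. Ooep, a KH domain gene of the oocyte's subcortical maternal complex, lies 7932 bases from Dppa5a and averaged 88.3 ± 10.7 CPM in cKO samples and 79.7 ± 8.94 CPM in control samples (SD, n = 3 each). Gsta2 on the other side of Dppa5a had 23 UMIs in all.

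Lists of related genes were read beside the members, as counts and medians without a test of the list. Of 26 pluripotency and primordial germ cell genes 24 were tested and 0 passed an adjusted p of 0.05. Of these 24, 20 had a log2 fold change below 0, with a median of -0.14, against 49.9% below 0 and a median of 0.0001 over all genes tested. Without control 3 the list had 12 genes below 0 and a median of -0.0014, so that count rests on 1 library. Its most abundant genes were Utf1, a chromatin factor of stem cells, with 985 ± 53.1 CPM in cKO samples and 1027 ± 41.0 CPM in control samples (SD, n = 3 each), and Pou5f1, which encodes OCT4, with 632 ± 14.5 CPM in cKO samples and 646 ± 32.4 CPM in control samples (SD, n = 3 each). Dppa3 and Dppa5a both exceeded these in every sample.

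The targets of the DPPA2 and DPPA4 pair known from mouse embryonic stem cells and the 2-cell embryo were at or near 0 UMIs. Of 22 such genes 18 had a row in the table and 17 of these had 0 UMIs, among them Duxf3, Zscan4c and Zfp352. Sp110 had 2 UMIs. None could be tested, while Dppa2 and Dppa4 themselves were detected in all 6 samples.

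Among 18 partners of DPPA3 and genes of the DNA methylation machinery 16 were tested, 7 with a log2 fold change above 0 and 9 below, with a median of -0.036, and 0 passed an adjusted p of 0.05. Trim28, a corepressor that keeps imprints methylated, had 233 ± 33.0 CPM in cKO samples and 293 ± 139 CPM in control samples (SD, n = 3 each). Tet1, a 5-methylcytosine dioxygenase, had 129 ± 13.0 CPM in cKO samples and 125 ± 4.52 CPM in control samples (SD, n = 3 each). Uhrf1, named after its values were seen because DPPA3 binds its protein, had 49.3 ± 3.57 CPM in cKO samples and 33.4 ± 11.3 CPM in control samples (SD, n = 3 each). That difference was 0.57 ± 0.26 (SE) as log2 fold change, and the adjusted p by edgeR was 0.994.

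Of 11 oocyte genes of the KH domain and subcortical complex group, to which Dppa5a is related by its KH domain, 6 were tested, 3 above 0 and 3 below, with a median of 0.036, and 0 passed an adjusted p of 0.05. Khdc3 had 69.9 ± 12.7 CPM in cKO samples and 71.9 ± 15.7 CPM in control samples (SD, n = 3 each). Nlrp2 had 0 UMIs. Dppa5a stood far above all of them in these cells.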

How the data were processed

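Per the submitters' processing notes, Cell Ranger, Seurat 3.0 and the build mm10 were used; the annotation release and parameters are not given in the sources used here. The authors deposited raw UMI counts of 27998 genes in 5160 barcodes, and a table of each barcode's sample and cluster number. A minimum of 500 genes and a maximum of 10% mitochondrial UMIs left 5154 barcodes. Scrublet marked 147 cells (2.85%) as doublets, which were kept except in an alternative. Counts were summed per sample, and per sample and cluster, and tested with edgeR 4.0.16 (quasi-likelihood, robust, filterByExpr, TMM, no covariate) in R 4.3.3, two-sided, with Benjamini-Hochberg adjustment over all genes tested. The code was first tested on simulated data. CPM in the comparisons of groups carry TMM factors, and the levels by rank, cluster, floor and marker list do not. Values per sample were compared by exact permutation over 20 labelings with scipy 1.17.1. Alternatives were RLE factors, no low-count filter, DESeq2 1.42.0, a replicate block, other sets of cells, thinning, and leaving out each sample.

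The labels do not say that samples came from separate animals, and the p-values here cover only the variation among these 6 samples, part or all of which may be technical. The bounds for counts of 0 cover counting error only. The members, gene lists and tests were chosen with earlier results of these data known. The rule for names took the members, the 3 genes most like each, annotated neighbours, and the 2 most abundant genes of each list. Genes named as cluster leaders were the 3 with the largest fold over the other cells, above a minimum level.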

Additional observations from a re-analysis of the deposited data

How the results depend on the processing

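No alternative brought any of the 4 detected Dppa genes past an adjusted p of 0.05, over all germ cells or in a cluster. Of 200 refitted fold changes 181 kept their sign. The 19 that turned lay near 0. Dppa3 in cluster 2 was 0.0081 and Dppa4 in cluster 3 was 0.033 without the low-count filter. Leaving out 1 sample gave Dppa3 -0.093 to 0.072 over all germ cells, -0.11 to 0.054, -0.098 to 0.076, -0.080 to 0.060 and -0.063 to 0.10 in clusters 0, 1, 2 and 3. It gave Dppa4 -0.35 to 0.023 in cluster 0 and -0.21 to 0.093 in cluster 3, and Dppa2 -0.13 to 0.052 in cluster 1 and -0.17 to 0.062 in cluster 2. The cause was not tested. Numbers of genes called over all germ cells were 0 in the reported test, 6 without the filter, 3 with DESeq2 and 0 to 4 leaving out 1 sample, with 4 without control 3. In clusters 0, 1, 2 and 3 they were 15, 8, 3 and 17 without the filter, and leaving out 1 sample 0 to 2, 0 to 2, 0 to 2 and 0 to 3. The deviations of same-numbered samples had correlations of -0.145, 0.257 and 0.191, and those of differently numbered samples ran from -0.313 to 0.165. These values do not settle whether the numbers mark pairs. The labels name no pairing beyond the replicate number, so the reported test used no block. With the replicate number as a block the fold changes were -0.096 for Dppa2, -0.018 for Dppa3, -0.18 for Dppa4 and -0.14 for Dppa5a, and 1 gene was called in cluster 3. Under the block the SE of Dppa4 was 0.075 and its unadjusted p by edgeR 0.041, against 0.38 without the block, while its adjusted p was 0.989. The medians of the DPPA3 list and of the oocyte list changed sign, to 0.011 and -0.17 without cKO 1, 0.020 and -0.048 in thinned cells, and, for single lists, 0.059 without control 2 and -0.025 without doublets; leaving out 1 sample gave -0.081 to 0.059 for the DPPA3 list and -0.17 to 0.10 for the oocyte list, and these alternatives for lists were chosen after seeing the data. The differences between groups in the share of cells and in the coefficient of variation moved by at most the SD between samples in 32 of 32 alternatives each, though some changed sign around 0. Depth limits what can be said of Dppa1, at 0 UMIs, and of Dppa2.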
